A study of Homo sapiens with 4 samples.

Results

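N6-methyladenosine (m6A) peaks were examined on the transcripts of 10 genes of the Krüppel-like factor (KLF) family in MDA-MB-231, a long-established cell line from a human triple negative breast cancer. The genes were KLF2, KLF3, KLF4, KLF5, KLF6, KLF7, KLF9, KLF10, KLF11 and KLF13, chosen by name. Each was matched to the peak list by its Ensembl gene ID. Of the 10 genes, 7 had a peak, with 17 peaks in all, in a list of 20261 peaks on 10140 gene IDs.

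The study made 4 libraries of poly(A) RNA from these cells, 2 of input RNA and 2 of RNA immunoprecipitated (IP) with an anti-m6A antibody, all from cells labelled shNS. The treatment label of both IP libraries reads IP-YTHDC1, while their titles and protocol describe m6A-seq, and the latter was followed here. The deposited list gives 1 score per peak for all libraries together, so no spread between replicates, no read depth and no expression level is known for any gene, and the labelled cell line could not be checked against marker genes. The score was read as the peak caller's p-value for IP over input, although an FDR is also possible. A smaller score, and so a larger −log10 score, is called a stronger peak here.

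KLF proteins are transcription factors that bind GC-rich and CACCC elements through 3 zinc fingers at the C-terminal end. They are commonly sorted by their cofactors. KLF3, KLF8 and KLF12 recruit the co-repressor CtBP. KLF9, KLF10, KLF11, KLF13, KLF14 and KLF16 recruit SIN3 co-repressor complexes. KLF1, KLF2, KLF4, KLF5, KLF6 and KLF7 work largely with acetyltransferases. Many KLF mRNAs are short-lived and respond quickly to growth factors, and KLF10 and KLF11 are known as TGF-β-inducible early genes. m6A is a base modification inside mRNA that reader proteins such as YTHDC1 recognise, and it is often found in long internal exons and around stop codons.

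Sequences are shown for the peaks that reached a transcript start, where the base content under a peak could be read from the first 50 transcribed bases of a gene. Such windows, from RefSeq on GRCh38.p14, were found for 8 of the 10 genes. In 3 of them a peak of the gene reached into the window of a RefSeq start. The 30 bases below are written 5′ to 3′ on the transcript strand, with T in place of U, and the capitals mark the bases that the peak covered.
KLF2, chr19:16324846-16324875, plus strand, bases 21 to 50 from the start: cCGCGCCCCGACCAGCCCGGCCTCGGGCAG
KLF4, chr9:107489740-107489769, minus strand, bases 1 to 30 from the start: GGCAGTTTCCCGACCAGAGAGAACGAACGT
KLF7, chr2:207134094-207134123, minus strand, bases 15 to 44 from an internal start: aTTTGGGAGAGGAAGGGGAGATGATGTAAC
The KLF4 peak covered all 50 bases of the window, and a block of it began exactly at the RefSeq start. The KLF2 peak covered bases 22 to 50, and the KLF7 peak covered bases 16 to 50 from a start inside the gene. GGAC, a short core of the common m6A sequence context, was searched on the transcript strand of each window and was in none of these 3, against 18.9% of the 35116 windows of all genes. On the opposite strand, where the motif reads GTCC, it was in 17.6% of all windows and once in that of KLF2. The absence of these letters from a short window says nothing about the rest of the peak. Anti-m6A antibodies also bind m6Am, a related base next to the mRNA cap, and the list does not separate the modifications at a 5′ end.

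The KLF genes were divided by strand. All 5 minus-strand genes (KLF4, KLF6, KLF7, KLF9 and KLF10) had a peak. Of the 5 plus-strand genes, KLF2 and KLF11 had one, and KLF3, KLF5 and KLF13 had none. Among all RefSeq protein-coding genes of known strand, 4310 of 7498 on the minus strand (57.5%) and 2369 of 7820 on the plus strand (30.3%) had a peak. These backgrounds hold genes that the cells may not express. The 2 of 5 plus-strand KLF genes are thus near the share for their strand, and the 5 of 5 minus-strand genes are above theirs. A score no larger than 5.2e-08, the median of the list, was reached by all 5 minus-strand genes, against 45.3% of minus-strand protein-coding genes, and on the plus strand by KLF2 alone, against 12.6%. No test was made of these shares, since genes are not replicates. For a gene without a peak the list does not tell an unmethylated mRNA from one too scarce to be called. KLF3, KLF5 and KLF13 are also all on the strand with fewer peaks, since 72.3% of listed peaks are on the minus strand. Why the strands of the list are unequal was not tested, so the absence of a plus-strand peak may not be particular to the gene.

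**Figure D1:**
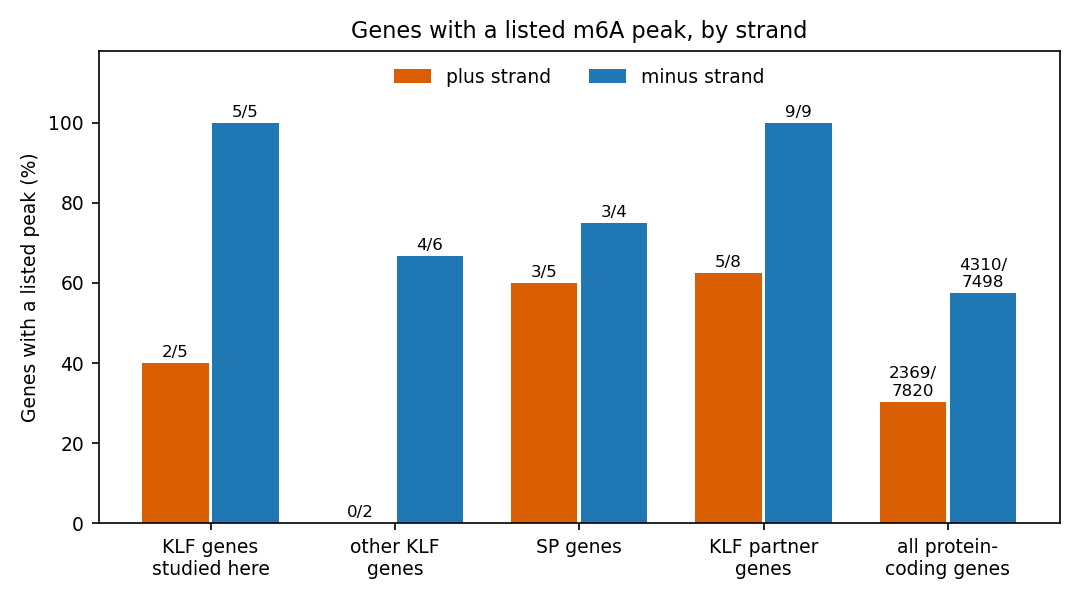
The percentage of genes with at least 1 listed peak (vertical axis, from 0) is drawn for 5 gene sets, with plus-strand genes in orange and minus-strand genes in blue and the counts above the bars. In each set the minus-strand bar is the higher one, and all 5 minus-strand KLF genes studied here had a peak against 2 of 5 on the plus strand.

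The rest of the family was counted in the same way. Of the 8 other KLF genes, KLF12, KLF14, KLF15 and KLF16 had peaks, and all of these are on the minus strand. KLF1, the erythroid factor, and KLF18 are also on the minus strand and had none, nor had KLF8 and KLF17 on the plus strand. Over all 18 KLF genes, 9 of 11 on the minus strand and 2 of 7 on the plus strand had a peak, 26 peaks in all. Over all protein-coding genes the shares were 57.5% and 30.3%. The plus-strand count was thus near the share for its strand and the minus-strand count above it, without a test. KLF5 and KLF12 are both on chromosome 13, on opposite strands. KLF5, on the plus strand and known for driving proliferation of epithelial cells, had no peak. KLF12, on the minus strand, had 3, the strongest at 2.5e-71. Peaks on the plus strand are fewer and weaker over the whole list, so these genes cannot be set directly against each other.

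The members with peaks carried 1 to 4 each. The 5 minus-strand genes had 2.8 ± 0.837 peaks (mean ± SD over genes), against 2.21 ± 1.59 over the 6624 minus-strand genes in the list. KLF9 had 4 peaks, a number that 15.2% of minus-strand genes reached. KLF4 and KLF7 had 3, reached by 31.2%, and KLF6 and KLF10 had 2, reached by 58.1%. On the plus strand KLF2 had 2 and KLF11 had 1, against 1.60 ± 1.01 over 3516 genes. None of the 17 peaks shared a base with a peak on the opposite strand. Over the list 17.8% of plus-strand and 7.07% of minus-strand peaks did.

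KLF4, one of the factors used to reprogram cells to pluripotency, had the most bases in peaks. Its RefSeq span on chromosome 9 runs from 107484852 to 107489769. The longest of its 3 peaks, 107485358 to 107488185, held 1727 spliced bases in blocks of 1158 and 569 bases around a gap of 1101 bases, with a score of 1e-186. Only 0.539% of minus-strand peaks were as long. A second peak of 180 bases (107489240 to 107489419) had a score of 2.2e-05, above the list median. The third lay at the 5′ end (107489478 to 107490184, score 5e-18). It had a block of 292 bases that began at the RefSeq start and another of 66 bases upstream of the RefSeq span. Together the peaks held 2265 bases, which is 46.1% of the span. Among the 1075 minus-strand protein-coding genes with a peak and a span of at most 10000 bases, the median was 11.8%, and 7.63% of them had a share as high as KLF4.

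KLF6, a factor induced by tissue injury, had the strongest peak of the family. It had a score of 1e-297 and lay on chromosome 10 at 3781601 to 3783261, in blocks of 46 and 614 bases around a gap of 1001 bases. A strongest peak at least this strong was found for 6.48% of minus-strand genes. The second KLF6 peak (3781362 to 3781451) was 90 bases long and weak, at 0.00071. Measured along the span from the 5′ end, the midpoint of the strong peak was at 30.2% and that of the weak one at 41.3%. A midpoint was taken between the outer ends of a peak, gaps included. That of the strong peak fell inside the gap between its blocks. The strong peak began 1948 bases after the 5′ end, and the weak one ended 5366 bases before the RefSeq 3′ end. Peaks held 8.14% of its span, below the median of 11.8% for short minus-strand genes.

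KLF7, which acts in the development of neurons, has the longest span of the minus-strand members, at 99715 bases on chromosome 2. Its 3 peaks were spread over the gene. The first (207165592 to 207165772, 181 bases) had a score of 1.7e-06 and the second (207123865 to 207134122) a score of 8.5e-10, in blocks of 56 and 544 bases. The smaller of these blocks began within the window of the internal RefSeq start shown above. The third (207080940 to 207081240, 301 bases) was the strongest at 1.3e-23. KLF7 was the weakest of the 5 minus-strand genes, since 48.6% of minus-strand genes had a strongest peak as strong.

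KLF2, a factor of resting endothelium and T cells, was the plus-strand gene with the stronger peak. Its span is 3860 bases on chromosome 19. The peak at its 5′ end (16324847 to 16324936, 90 bases) had a score of 0.0019 and began 21 bases into the gene, the bases shown above. The other, 16327014 to 16327251 and 238 bases long, had a score of 7.2e-09. As weak as this is beside the minus-strand genes, only 37.7% of plus-strand genes had a strongest peak at least as strong. Against genes of both strands the figure was 57.7%. The 2 peaks held 8.50% of its span, and the median of 630 short plus-strand genes was 5.75%.

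Among the SIN3-binding members, KLF9 and KLF10 on the minus strand had strong peaks and KLF11 and KLF13 on the plus strand a weak one and none. KLF9 responds to glucocorticoid and thyroid hormone. Its 4 peaks on chromosome 9 formed pairs close to the ends of the gene. Near the 5′ end lay a peak of 569 bases (70413637 to 70414205, score 5e-39) and one of 420 bases (70413009 to 70413428, score 7.9e-100). Towards the 3′ end lay the strongest (70387498 to 70387887, 390 bases, score 1e-136) and a weak one of 121 bases (70387079 to 70387199, score 0.00037). Its strongest peak was reached or passed by 16.4% of minus-strand genes, and its 1500 bases in peaks by 11.6%.

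KLF10, also called TIEG1, had 2 peaks on chromosome 8. They were the peak at 102649948 to 102651272 with blocks of 124 and 444 bases and a score of 1e-116, and the peak at 102651600 to 102651928, 329 bases long, with a score of 2.5e-36. Both were under the list median, and 18.9% of minus-strand genes had a strongest peak as strong. KLF11, also called TIEG2 and a close relative of KLF10, had a single peak of 120 bases on chromosome 2 (10048163 to 10048282) with a score of 7.9e-05. That peak was weak even for its strand, since 70.8% of plus-strand genes had a strongest peak as strong. KLF13, a regulator of CCL5 in T cells, had no peak over a span of 108831 bases on chromosome 15.

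**Figure D2:**
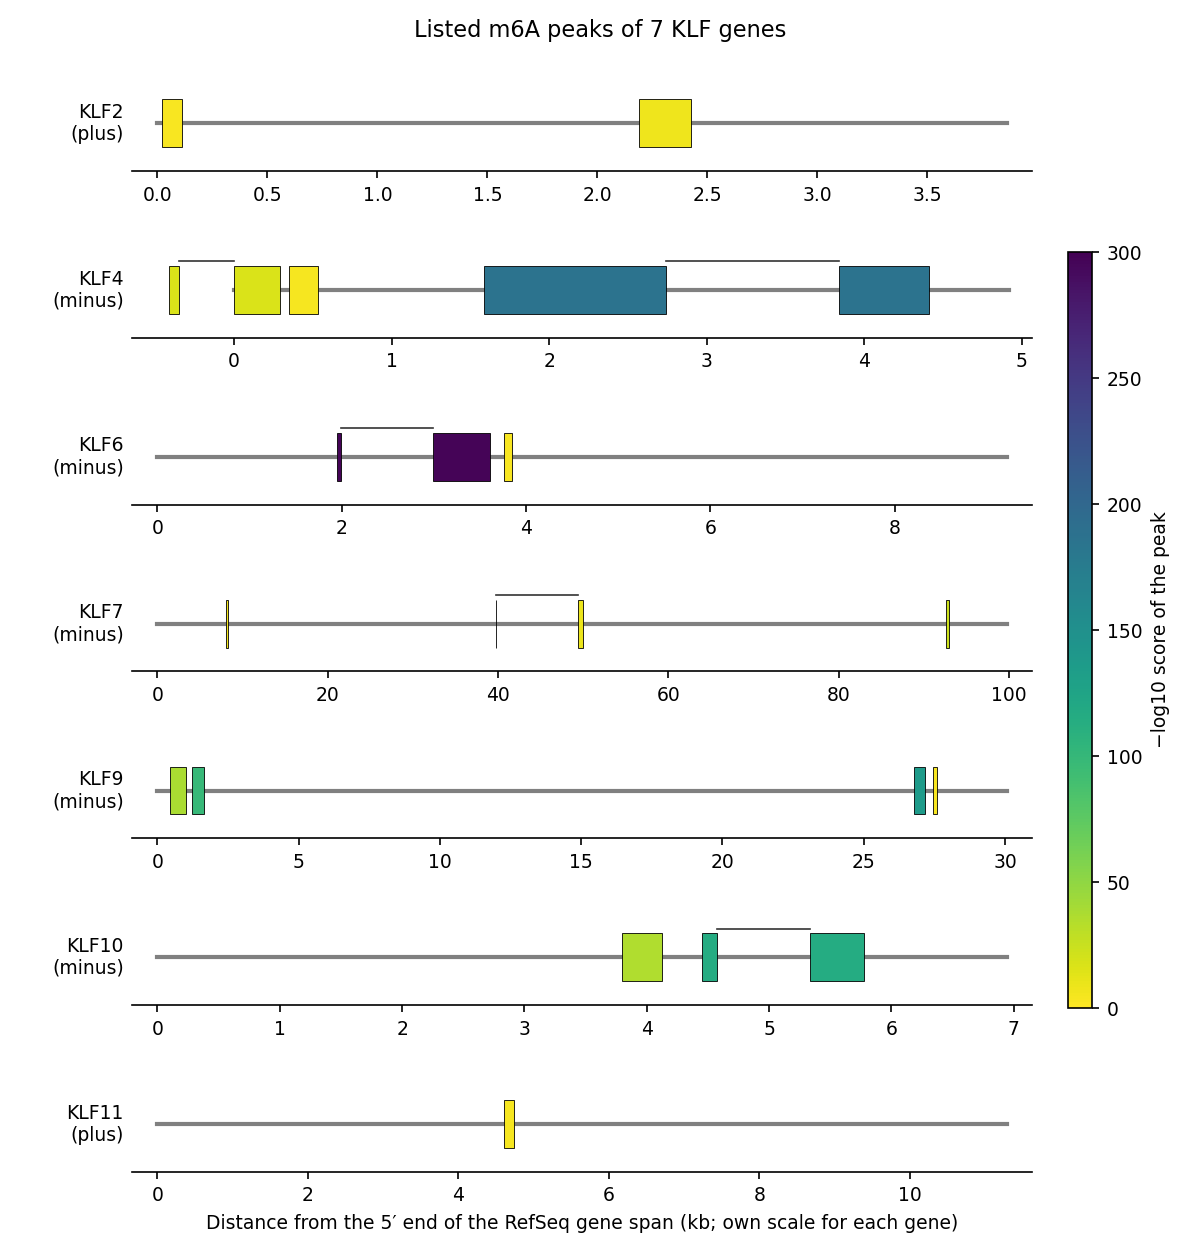
For each of the 7 KLF genes with a peak, the grey line is the RefSeq gene span from 5′ to 3′ (kb, with its own scale for each gene), boxes are peak blocks, thin lines join blocks of a peak, and colour gives the −log10 score. KLF9 has peaks near both ends, and the first peak of KLF4 extends upstream of its span. The strong peak of KLF6 has its midpoint at 30.2% of the span from the 5′ end, inside the gap between its blocks.

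KLF3 was the only CtBP-binding member. It lies on the plus strand of chromosome 4 and had no peak of its own. A peak of 91 bases on the minus strand (38664510 to 38664600, score 0.00076) lay inside its span, 311 bases from the 5′ end, and was assigned to KLF3-AS1, an antisense RNA. It was the only peak of another gene within the span of any of the 10 members. With a score this weak, and no peak of KLF3 at that place, it gave no value for KLF3 itself.

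By strength the order of the strongest peaks was KLF6 (−log10 score 297), KLF4 (186), KLF9 (136), KLF10 (116), KLF7 (22.9), KLF2 (8.14) and KLF11 (4.10). The list gives no error for a score, so whether neighbours in this order differ cannot be said. The 5 minus-strand values had a median of 136, against 21.4 for all minus-strand genes with a peak. The plus-strand values lay on both sides of the median of 6 for their strand. Of the 7 genes, all but KLF11 were on the stronger side of the median of their own strand. For KLF7 this held by a small margin among all minus-strand genes in the list, where 48.6% had a strongest peak as strong. Among minus-strand protein-coding genes alone 56.4% did, so there KLF7 was on the weaker side of the median. The shares as strong among those genes were 7.76% for KLF6, 14.4% for KLF4, 19.7% for KLF9 and 22.6% for KLF10. Each was larger than among all minus-strand genes in the list. In length, 10 of the 14 minus-strand peaks were longer than the median minus-strand peak, and their median length was 374 bases against 240. No KLF peak was listed with a score of 0, which 466 peaks of the list had.

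**Figure D3:**
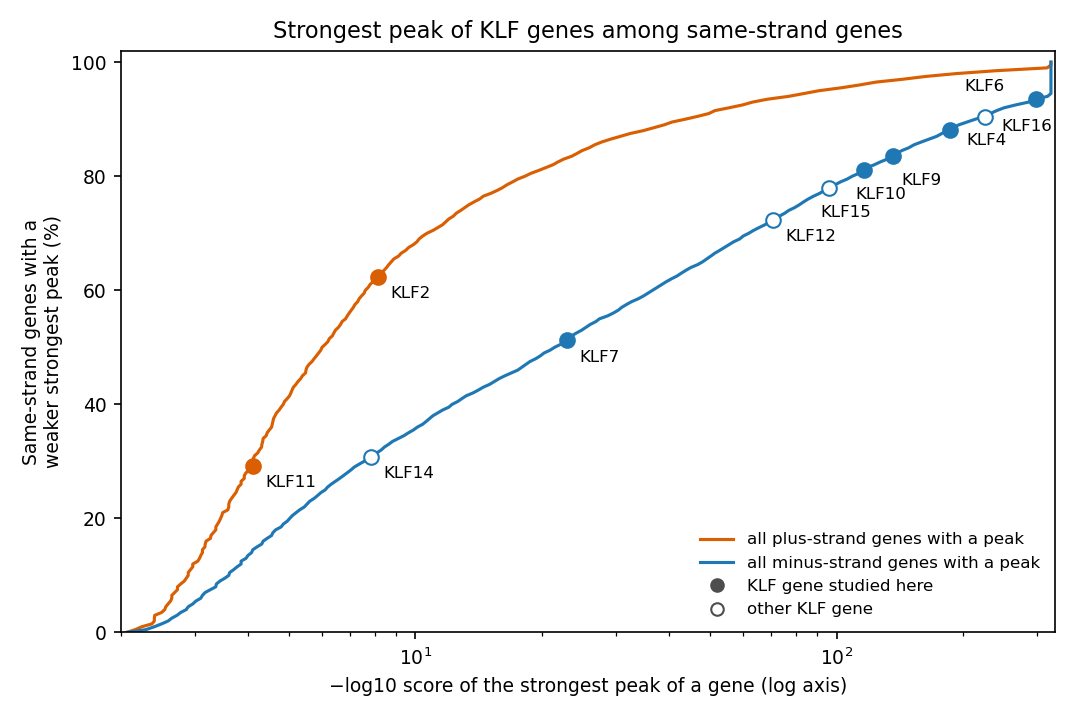
Each curve gives, for the strongest peak of every gene on a strand (horizontal axis, −log10 score, log axis), the percentage of genes on that strand with a weaker one (vertical axis). Filled circles are the KLF genes studied here and open circles the other KLF genes. KLF6, KLF4, KLF9 and KLF10 lie within the top 18.9% of the minus-strand curve, and KLF2 lies above KLF11 on the plus-strand curve. The curves are not limited to protein-coding genes.

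To place the peaks along the genes, positions were given as the midpoint of a peak along the RefSeq span, introns included. The span was cut into 10 equal parts, and the 16 peaks wholly inside their span were used. Each midpoint lay between the outer ends of a peak, so for a peak of 2 blocks it can fall in the gap. The final part held 2 of the 13 minus-strand KLF peaks (15.4%), 1 each of KLF7 and KLF9, against 37.8% of 11541 peaks on minus-strand protein-coding genes. The first part held 4 of 13 (30.8%), against 12.1%. On the plus strand none of the 3 peaks lay in the final part, against 36.4%. These counts were not tested, and peaks of a gene share their transcript. The background peaks also lie on genes of any span length, while KLF2, KLF4, KLF6 and KLF10 have spans of at most 10000 bases. No background of short genes was made for these parts.

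**Figure D4:**
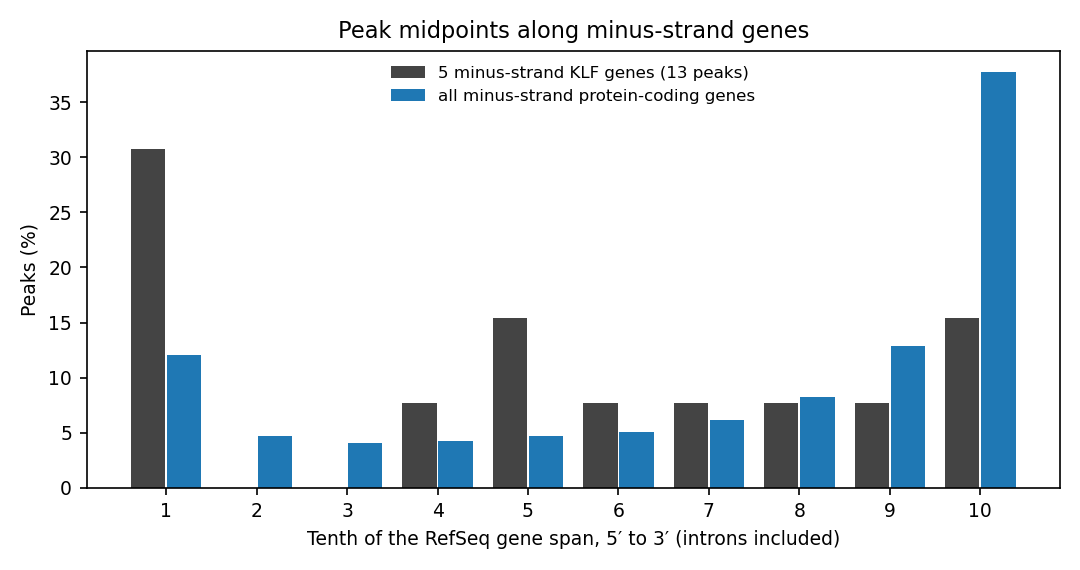
The percentage of peaks (vertical axis) is drawn by which of 10 equal parts of the gene span holds the peak midpoint (horizontal axis, 5′ to 3′), for 13 peaks of 5 minus-strand KLF genes in grey and for all minus-strand protein-coding genes in blue. The final part holds 15.4% of the KLF peaks and 37.8% of all, the latter on genes of any span length.

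Distances in bases gave another view. Of the 16 peaks, 8 ended within 5000 bases of the RefSeq 3′ end, against 53.7% of minus-strand and 57.0% of plus-strand peaks. The spans of KLF2 (3860 bases) and KLF4 (4918 bases) are shorter than this window. Their peaks inside the span were therefore counted wherever they lay, and the likeness of these shares says little about position. None of the 17 peaks lay within 500 bases, where 12.6% of minus-strand and 11.2% of plus-strand peaks did, and 1, of KLF4 at 506 bases, lay within 1000 bases, against 20.7% and 20.2%. Taking the peak nearest to the 3′ end in each gene, the distance was 506 bases for KLF4, 1164 for KLF10, 1434 for KLF2, 2475 for KLF9, 5366 for KLF6, 6554 for KLF11 and 6803 for KLF7. The median was 1670.5 bases over 5110 minus-strand genes and 2566 over 2689 plus-strand genes, so the KLF genes lay on both sides. Many of these background genes are longer than the short KLF genes. Among genes with a span of at most 10000 bases the median was 595.5 on the minus strand and 1043.5 on the plus strand. Of the KLF genes this short, KLF4 was nearer to the 3′ end than that median, and KLF6, KLF10 and KLF2 were further. Which exons, and whether coding sequence or 3′UTR, the peaks cover was not analysed here.

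The SP genes, the closest relatives of the KLF family, had peaks in 6 of 9 cases. These were 3 of 5 on the plus strand and 3 of 4 on the minus strand, against 30.3% and 57.5% of all protein-coding genes. SP3 had 4 peaks, the strongest at 1e-227, and 9.39% of minus-strand genes had a strongest peak as strong. SP1, its plus-strand relative and a factor of many GC-rich promoters, also had 4 peaks, the strongest at 1.1e-06. Of plus-strand genes, 50.7% had a strongest peak as strong as that of SP1. SP9 (1.3e-14), SP8 (3.2e-09), SP6 (2.5e-07) and SP2 (0.00055) had 1 or 2 each, and SP4, SP5 and SP7 had none. The SP9 peak of 1.3e-14 shared bases with a peak on the opposite strand.

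Of 17 genes whose proteins work with KLF factors, 14 had a peak, 9 of 9 on the minus strand and 5 of 8 on the plus strand. The shares over all protein-coding genes were 57.5% and 30.3%, and the difference was not tested. Among the co-repressors all 6 had one, with CTBP1 at 1e-211, CTBP2 at 1e-237, SIN3A listed at 0 and HDAC2 at 1e-242 on the minus strand, and SIN3B (2.5e-17) and HDAC1 (6.3e-65) on the plus strand. The strongest CTBP1 peak shared bases with a peak on the opposite strand. The acetyltransferase genes EP300 (plus strand, 6.3e-17) and CREBBP (minus strand, 1e-220) had 5 peaks each, and KAT2B had none. FBXW7, a ubiquitin ligase subunit that marks KLF2 and KLF5 for degradation, had 4 peaks (1e-182), SMURF2 had 2 (1.6e-76) and WWP1 had none. In the ERK5 route to KLF2 and KLF4, the kinases MAP2K5 (6.9e-05) and MAPK7 (2e-18) had 1 each and the factors MEF2D (2.8e-09) and MEF2C (1.6e-18) had 3 and 2, while MEF2A had none. The 6 SP and partner genes without a peak were KAT2B, WWP1, MEF2A, SP4 and SP5 on the plus strand and SP7 on the minus strand.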

How the data were processed

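m6A-seq compared 2 IP with 2 input libraries. Using STAR, the authors mapped the reads onto GENCODE v33 transcripts (build hg38 per the labels). They called peaks with exomePeak under default settings, at thresholds of 1 for fold enrichment and 0.05 for FDR. The deposited score column, read here as a p-value although it may be an FDR, gives 1 value per peak with both replicates combined. Read counts and per-library values were not used here, so depth is unknown.

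Peaks were assigned by gene ID (10103 of 10140 IDs had a symbol). RefSeq GRCh38.p14 gave gene spans, and its promoter table the strand of 15318 protein-coding genes, which served as the background. KLF10, SP6 and SP9 took their strand from the list, and KLF3, SP7 and WWP1 from general knowledge. Coordinates count from 1. A percentage "as strong" is the share of same-strand genes in the list with an equal or larger −log10 score, scores of 0 being set to 323. Overlap meant 1 shared base. No significance test was run. The functions were tested on simulated data. All genes on the lists fixed by name (members, other KLF, SP and partner genes) are reported. Members and lists were chosen with earlier results of these data known, and the distances to the 3′ end and the motif were chosen after values had been seen. Python 3.11.15 and pandas 2.3.3 were used.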

Additional observations from a re-analysis of the deposited data

How the results depend on the processing

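Keeping only peaks whose score did not exceed the list median left 11 of the 17 KLF peaks, on 6 of the 7 genes, KLF11 being lost. It left a peak on 20 of the 24 other KLF, SP and partner genes that had one. Dropping peaks that overlapped the opposite strand (by 1 base, or by 50% of the shorter peak) and using the list only up to where its chromosomes start again changed neither the 7 genes nor the 17 peaks. Merging left 17 peaks. The number of members on the stronger side of the median of their strand, 6, was 5 when ranked among both strands, KLF2 being lost. It was also 5 among same-strand protein-coding genes alone, KLF7 being lost. The share of member peaks in the final of 10 parts of the span, 12.5% of 16, was 10% for peaks at or below the median score. With the span cut into 3 parts, the final part held 25% of member peaks. It held 61.1% of all minus-strand and 61.3% of all plus-strand protein-coding peaks, on genes of any span length. Measured in bases within 5000 bases of the 3′ end the member share was 55.3%, a different quantity, against 57.7% and 59.3%. The spans of KLF2 and KLF4 are shorter than that window, so all their peak bases inside the span were counted. An alternative added after seeing the data, a midpoint inside the span, left the share in the final of 10 parts at 12.5%. No paired analysis was possible because each peak has a single score from all 4 libraries combined, so the replicate block and leaving out a replicate were not run. The unknown depth limits what the absence of a peak means.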

Other observations

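KLF15, which acts in glucose and amino acid metabolism, and the other KLF genes with peaks added some values. KLF15 had 3 peaks close together on chromosome 3, the strongest of 659 bases in 2 blocks (126343593 to 126352196, score 1.6e-96), and the nearest of them ended 55468 bases before the RefSeq 3′ end. As far or further was found for 3.84% of minus-strand genes. Both values rest on the end of the RefSeq span of KLF15, which is 69284 bases long. Which transcript end the cells use is not known. KLF16 had a peak of 510 bases at 1e-225 on chromosome 19 (1854016 to 1854525). It also had one of 61 bases (1863519 to 1863579, score 0.00013) that began exactly at a RefSeq start of the gene. The first 50 bases from that start held GGAC 2 times. KLF14 had 1 peak of 417 bases on chromosome 7 (130732572 to 130732988, score 1.5e-08).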
